A study of Mus musculus with 12 samples.

Results

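The 33 genes described here are interferon-stimulated genes, a set compiled by name from the antiviral and signalling genes that interferons switch on. All 33 were found by gene name among the 57180 genes of the deposited liver tables, and all 33 passed the filter on low counts that left 19355 genes to test. They comprise 3 signalling transcription factors, 4 nucleic acid sensors, 6 ubiquitin-like modifiers, ligases and ADP-ribosylation enzymes, 3 guanylate-binding GTPases and 17 antiviral effectors.

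Bulk RNA-seq was performed on 12 livers, 1 per mouse, from 2 genotypes with 3 mice of either sex in each. The groups are called Het_F, Het_M, KO_F and KO_M after genotype and sex, and a mouse number is added to name a liver. Every mouse lacked Csa (listed as Ercc8), the gene mutated in one form of Cockayne syndrome. Every pup, whatever its genotype, had also received AAV9-CSA into the lateral ventricles of the brain at birth or on the next day. This vector carries the human ERCC8 cDNA behind the ubiquitous chicken β-actin promoter, so neither genotype is an untreated or wild-type control. The KO mice, called CX mice in the study, were killed at a humane endpoint of hunched posture and tremor, and the Het mice were their age-matched littermates without signs of disease. Genotype and state of health at collection therefore cannot be told apart, and the age of each mouse is not given in the sources used here. The labels write KO as Csa-/-;Xpa+/+ and Het as Csa-/-;Xpa+/-, whereas the study describes CX mice as lacking Xpa, a damage-recognition factor of nucleotide excision repair. Xpa was lower in the livers labelled KO. In Het livers it averaged 3.49 ± 0.324 CPM (females) and 5.95 ± 0.403 CPM (males), and in KO livers 1.30 ± 0.453 and 1.18 ± 0.0525 (SD, n = 3 each). CPM are counts per scaled library total, as set out under the processing, and the log2 fold change of Xpa was -1.84 (edgeR's quasi-likelihood test, Benjamini-Hochberg adjusted p = 5.74e-05). The names Het and KO are used below as the labels give them.

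Libraries held from 30044781 to 43634046 counts, and the least covered member, Oas3, had 27 counts in its lowest liver. The 8 hepatocyte markers examined, albumin among them, summed to between 71700 and 146000 CPM, as liver tissue should give. No library was a copy of another, since the chi-square statistic between livers within a group ran from 86.8 to 226 times its degrees of freedom. Between groups the lowest values were those of KO_F_123 with KO_M_122 (79.8) and KO_M_118 (84.1), below every value within a group. Over all genes KO_F_123 was thus nearer to these KO males than to either other KO female. Its value was 131 with KO_M_136 and 226 with KO_F_108, which was also far from KO_F_112 (207). In the interferon-stimulated genes a pair of female livers stood apart from the others of their groups, Het_F_126 and KO_F_123, and the results that rest on them are given with and without them.

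Interferons are secreted proteins that warn neighbouring cells of infection or of nucleic acid in the wrong place. Type I interferons bind the receptor of Ifnar1 and Ifnar2, whose kinases activate transcription factors. A complex that holds Stat2 and Irf9 then binds a DNA element called the interferon-stimulated response element (ISRE), while interferon gamma acts through a different element, the gamma-activated site (GAS). In liver, hepatocytes, resident macrophages (Kupffer cells) and endothelial cells can all respond, and in bulk tissue fewer cells of a type and less RNA per cell cannot be told apart.

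The promoters of the members were searched for these elements, a feature that the choice of members had not used. The window was the 250 bases before each start in GENCODE M39 on GRCm39, the ISRE core was GAAA, any 2 bases and GAAA again on either strand, and GAS was TTCNNNGAA, which reads the same on both strands. An ISRE core was present in 14 of 33 members (42.4%), against 3.32% of 21770 protein-coding genes. It was found in 9 of 17 antiviral effectors, 3 of 6 modifiers and ligases, 1 of 4 sensors, 1 of 3 factors and 0 of 3 guanylate-binding GTPases. A GAS match was present in 6 of 33 members (18.2%), against 7.70% of all protein-coding genes. In a list of 67 other interferon-stimulated genes, described further below, it was present in 1 (1.49%). For Zbp1, Isg15, Ifit1, Ifit3, Ifit3b and Gbp7 only 1 of the matches in the window is shown. The matches below belong to members whose values follow. Each is written 5′ to 3′ on the strand of its gene, with the match in capitals and its position in GRCm39 after the sequence, and all lie upstream of the start of the gene.
Usp18, first ISRE core: ggtgcctgagTTTCGCTTTCctttggatct (chr6:121222772-121222801, gene on the plus strand)
Usp18, second ISRE core: ggatctagggGAAAACGAAAgcttggcggt (chr6:121222796-121222825, gene on the plus strand)
Rsad2, ISRE core: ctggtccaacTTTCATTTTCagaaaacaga (chr12:26506552-26506581, gene on the minus strand)
Zbp1, ISRE core: ccgatttcaaTTTCGATTTCgacacccttt (chr2:173060790-173060819, gene on the minus strand)
Isg15, ISRE core: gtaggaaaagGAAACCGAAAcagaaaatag (chr4:156285328-156285357, gene on the minus strand)
Ifit1, ISRE core: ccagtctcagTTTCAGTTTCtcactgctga (chr19:34618194-34618223, gene on the plus strand)
Ifit3, ISRE core: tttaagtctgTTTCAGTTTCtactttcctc (chr19:34560797-34560826, gene on the plus strand)
Ifit3b, ISRE core: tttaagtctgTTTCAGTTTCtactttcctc (chr19:34585193-34585222, gene on the plus strand)
Gbp7, GAS: tccgttttctTTCCAGGAAaagcagaagc (chr3:142235981-142236009, gene on the plus strand)

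The Ifit3 and Ifit3b windows hold the same 30 bases, as near-identical neighbouring genes, and reads of this pair may have been split between them. The same uncertainty applies to Oas1a, to the guanylate-binding genes and to Trim30a, which have close relatives. Of the members called over both sexes, Usp18 and Rsad2 have an ISRE core in the window, whereas these letters are not in the windows of Gbp3 and Oasl1.

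Levels compared between genes are in TPM, which accounts for transcript length. Averaged over the 12 livers, Ifi27 (68.2 TPM) and Bst2 (67.1 TPM), which codes for tetherin, were the most abundant. Irf7 (17.0 TPM), Parp9 (12.3 TPM) and Stat2 (11.3 TPM) followed, and Oas3 was the lowest at 0.454 TPM. Every member was counted in every liver of both genotypes.

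The first comparison asked whether KO livers differed from Het livers over both sexes. Of the 33 members 4 rose in KO livers and 0 fell, at a Benjamini-Hochberg adjusted p below 0.05 in edgeR's quasi-likelihood test. The members that rose were Usp18, Gbp3, Oasl1 and Rsad2. Among all genes tested 11.4% were called higher and 10.3% lower, so the members' share of higher calls was near that of all genes. At an unadjusted p below 0.05, 12 members were higher and 3 lower, against 18.2% and 17.2% of all genes. DESeq2 called 9 members higher and 1 lower, and limma on log2(TPM + 1) called 7 higher and 0 lower. Of all 19355 genes DESeq2 called 5045 in either direction and limma 3254, against 4199 with edgeR. The median member log2 fold change was 0.18, against 0.01 over all genes, and 19 of 33 were positive. In 1 member, Usp18, all 6 KO livers lay above all 6 Het livers, while the groups of the other 32 overlapped (4.57% of all genes lay wholly above and 4.98% wholly below). The number called higher was 9 without Het_F_126 and also 9 without KO_F_108. Without KO_F_123, 4 were called higher and 3 lower, and 1 was called lower without Het_F_111 or Het_F_115. Leaving out Het_F_126 and KO_F_123 together gave 7 higher and 3 lower. The calls over all genes were fewer in each of these fits than with every liver. They were 3560 without Het_F_126, 3532 without KO_F_108 and 4140 without KO_F_123. Without Het_F_111, Het_F_115 or the pair they were 3379, 3684 or 3642.

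**Figure D1:**
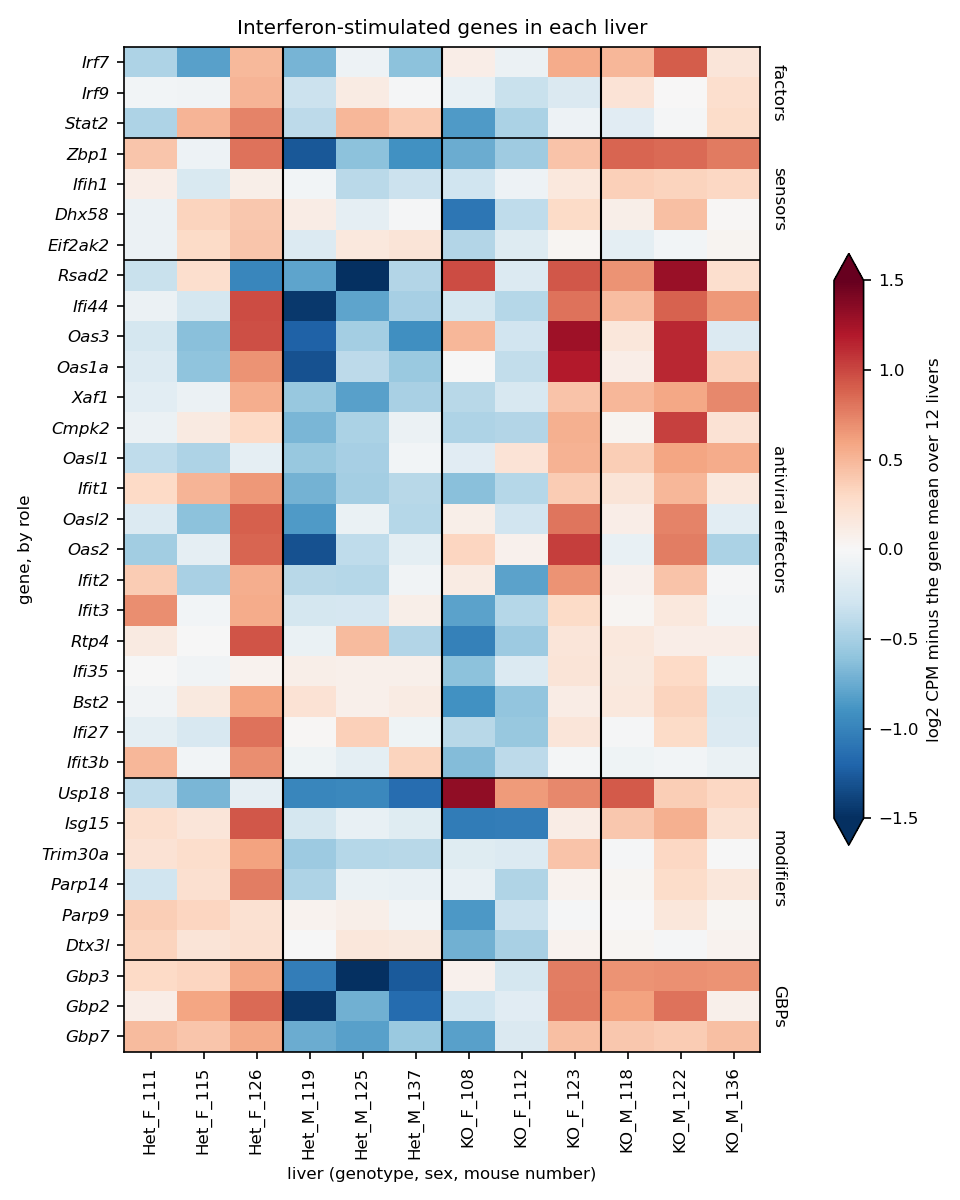
Each row is 1 of the 33 interferon-stimulated genes, ordered by role, and each column is 1 of the 12 livers. Colour gives log2 CPM minus the mean of the gene over the 12 livers, with values beyond ±1.5 in the end colours. Het_F_126, KO_F_123 and the 3 KO males are mostly above the gene means (for 23 to 30 of 33 members), and the 3 Het males, KO_F_108 and KO_F_112 mostly below.

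Females and males were then compared apart. In females 1 member rose (Usp18) and 2 fell (Parp9 and Dtx3l), where 4.93% of all genes were called higher and 4.9% lower. The median member log2 fold change in females was -0.35, against -0.01 over all genes, and 25 of 33 were negative. At an unadjusted p below 0.05, 2 were higher and 12 lower (14.1% and 14% of all genes). The KO females lay wholly above the Het females in 1 member, Usp18, and wholly below in 4, namely Parp9, Dtx3l, Isg15 and Irf9 (15.1% and 15.3% of all genes). The calls of lower members in females changed with the livers used, as did the calls over all genes. None was called lower without Het_F_111, Het_F_115 or Het_F_126 or without KO_F_108 or KO_F_112, 1 was called lower when any 1 of the male livers was left out, and 11 were called lower without KO_F_123. Without Het_F_126 and KO_F_123 together 7 were called lower. With every liver 1903 of all genes were called in females, in either direction. Without Het_F_111, Het_F_115 or Het_F_126 the count was 843, 1098 or 868, and without KO_F_108 or KO_F_112 it was 699 or 857. It ran from 1401 to 1734 without 1 male liver, and was 2550 without KO_F_123 and 1630 without the pair.

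In males 10 of 33 members rose and 0 fell, where 4.01% of all genes were called higher and 2.9% lower. The members that rose in males were Usp18, Gbp3, Zbp1, Gbp2, Xaf1, Gbp7, Oasl1, Ifih1, Rsad2 and Ifi44. The median member log2 fold change was 0.58, against 0.01 over all genes, and 27 were positive. At an unadjusted p below 0.05, 16 were higher and 0 lower (12.7% and 10.7% of all genes), and neither DESeq2, with 13 called higher, nor limma on log2(TPM + 1), with 8 called higher, called any lower. In males DESeq2 called 2244 of all 19355 genes in either direction and limma 1002, against 1339 with edgeR. The 3 KO males lay wholly above the 3 Het males in 19 members and wholly below in 0, against 16.4% and 15.7% of all genes. The count in males was 4 without Het_M_119, Het_M_125, KO_M_118 or KO_M_136 in turn, and 6 without Het_M_137 or KO_M_122.

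Markers of other liver cells also differed between the groups. Of all genes 4.01% were called higher and 2.9% lower in males, and 4.93% and 4.9% in females. The calls of markers by sex are to be read beside these shares. The 10 markers of Kupffer cells summed to 327 to 423 CPM (Het_F), 160 to 212 (Het_M), 420 to 652 (KO_F) and 221 to 627 (KO_M). Of the 10, 4 were called higher in KO males and 0 in KO females, with median log2 fold changes of 1.11 and 0.37. In females the median of these markers was above 0 and that of the members below 0. Between the sexes in Het livers both medians were below 0, at -1.04 for these markers and -0.52 for the members. There all 10 markers were lower in males at an unadjusted p below 0.05 (6.47% of all genes), and 0 were called. The 7 endothelial markers, those of sinusoidal cells among them, summed to 292 to 363 CPM (Het_F), 194 to 259 (Het_M), 172 to 240 (KO_F) and 148 to 264 (KO_M). Of the 7, 3 fell in females (Kdr, Clec4g and Eng) and 0 were called in males, with medians of -0.68 and -0.33. The 7 stellate cell markers summed to 358 to 453 CPM (Het_F), 249 to 360 (Het_M), 128 to 165 (KO_F) and up to 268 (KO_M). Of the 7, 3 fell in females (Lrat, Reln and Dcn) and 2 in males (Lrat and Reln), with medians of -0.85 and -0.36. In both lists the sums of KO females lay below those of Het females, while those of the males overlapped. Of 8 markers of monocyte-derived macrophages 3 were called higher in females and 3 in males, with medians of 0.27 in females and 0.90 in males. No marker of these lists was at 0 in every liver. The part of these cells in the results on interferon-stimulated genes was not tested.

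**Figure D2:**
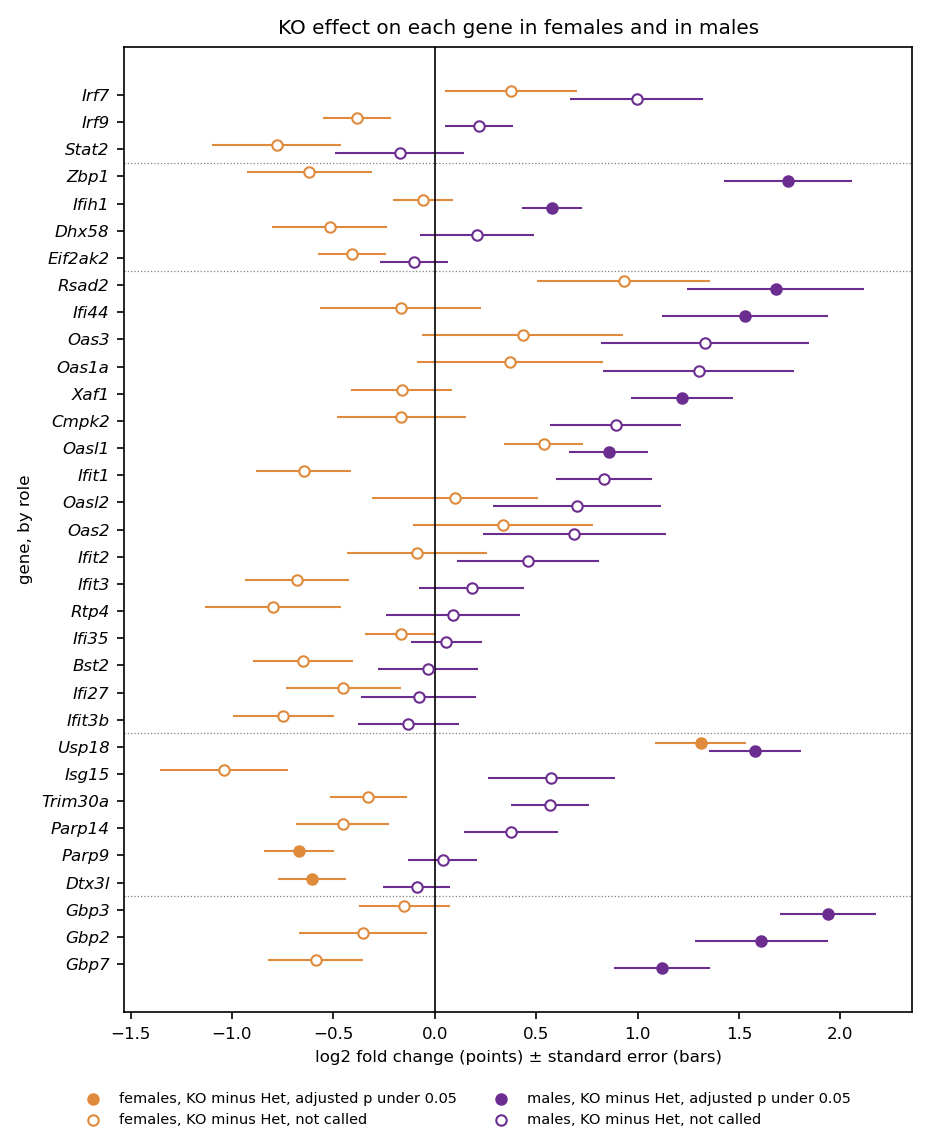
The log2 fold change from Het to KO of each member is drawn for females (orange) and males (purple), with bars of 1 standard error. Filled points are called at an adjusted p below 0.05. The male point lies to the right of the female point for all 33 members.

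Among the signalling transcription factors, Stat2 and Irf9 are parts of the complex that binds the ISRE, and Irf7 is the factor that amplifies type I interferon production. None of the 3 was called in either sex or over both. Irf7 read 27, 21.2 and 52.2 CPM (Het_F), 23.0, 35.4 and 24.3 (Het_M), 40.1, 35.1 and 55.0 (KO_F) and 52.6, 70.1 and 42.3 (KO_M). The KO males were all above the Het males, whereas Het_F_126 lay within the range of the KO females. The log2 fold change of Irf7 was 0.68 (SE 0.231) over both sexes, with an adjusted p of 0.056, and 0.995 in males, with an adjusted p of 0.0973. Irf9 read 27.2, 26.9 and 39.8 CPM (Het_F), 22.3, 30.5 and 27.6 (Het_M), 25.9, 22.1 and 24.0 (KO_F) and 32.1, 28.1 and 33.3 (KO_M). The KO females lay below the Het females and the males overlapped, with a log2 fold change of -0.08 (SE 0.120, adjusted p = 0.662) over both sexes. Stat2 read 25.8, 50.6 and 59.5 CPM (Het_F), 27.2, 50.0 and 46.8 (Het_M), 19.8, 25.6 and 33.7 (KO_F) and 31.6, 35.2 and 43.1 (KO_M). Its groups overlapped in each sex, and its log2 fold change was -0.48 (SE 0.224, adjusted p = 0.153).

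Among the nucleic acid sensors, Ifih1 codes for MDA5 and Dhx58 for LGP2, cytosolic detectors of double-stranded RNA, Eif2ak2 for the double-stranded RNA kinase PKR, and Zbp1 for a sensor of left-handed nucleic acid that can start necroptosis. In males 2 of 4 rose (4.01% of all genes) and in females 0 did (4.93% of all genes), with all 4 female values below 0. Zbp1 read 8.65, 6.13 and 11.4 CPM (Het_F), 2.66, 4.22 and 3.43 (Het_M), 3.84, 4.44 and 8.72 (KO_F) and 11.9, 11.8 and 11.1 (KO_M). The KO males lay close to one another and above all Het males and KO females, while Het_F_126 lay within their range. Zbp1 rose 3.34-fold in males (log2 fold change 1.74, SE 0.315, adjusted p = 0.00889). In females its log2 fold change was -0.62 (SE 0.306, adjusted p = 0.211), and over both sexes 0.56 (adjusted p = 0.0849). Ifih1 read 54.6, 43.5 and 54.2 CPM (Het_F), 49.6, 38.5 and 40.7 (Het_M), 41.4, 48.2 and 56.8 (KO_F) and 65.4, 64.0 and 62.8 (KO_M). The KO males lay above every other liver. Ifih1 rose 1.49-fold in males (log2 fold change 0.58, SE 0.147, adjusted p = 0.0363), a call that was lost without Het_M_125 or Het_M_137, KO_F_112 or any of the 3 KO males (adjusted p up to 0.138). Dhx58 and Eif2ak2 had log2 fold changes of -0.15 and -0.26 over both sexes and were not called.

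Among the modifiers and ligases, Isg15 is a ubiquitin-like protein that is attached to other proteins, and Usp18 removes it and also dampens signalling at the type I interferon receptor. Usp18 (chr6:121222848-121247877 in GRCm39) was the member with the smallest p over both sexes. It read 11.2, 9.05 and 13.3 CPM (Het_F), 7.38, 7.48 and 6.60 (Het_M), 36.9, 22.9 and 24.1 (KO_F) and 27.8, 18.8 and 18.1 (KO_M). Every KO liver lay above every Het liver in both sexes. Usp18 rose 2.73-fold over both sexes (log2 fold change 1.45, SE 0.159, adjusted p = 1.89e-04), 2.49-fold in females (adjusted p = 0.00702) and 3.00-fold in males (adjusted p = 0.00247). Isg15 read 4.38, 4.16 and 7.05 CPM (Het_F), 3.06, 3.40 and 3.24 (Het_M), 1.75, 1.76 and 3.99 (KO_F) and 4.88, 5.33 and 4.30 (KO_M). The KO females lay below the Het females and the KO males above the Het males. Isg15 was not called, with log2 fold changes of -1.04 (SE 0.315, adjusted p = 0.0563) in females and 0.57 (SE 0.313, adjusted p = 0.297) in males.

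Parp9 and Dtx3l code for an ADP-ribosyltransferase and its partner ubiquitin ligase, and they start head to head with overlapping ends on opposite strands of chromosome 16. Whether their reads were counted by strand is not given in the sources used here. Parp9 read 57.5, 55.4 and 51.9 CPM (Het_F), 46.0, 47.1 and 42.8 (Het_M), 24.4, 35.3 and 43.8 (KO_F) and 44.6, 49.9 and 45.2 (KO_M). Dtx3l read 71.8, 65.5 and 67.5 CPM (Het_F), 57.0, 64.5 and 63.4 (Het_M), 34.6, 40.8 and 59.3 (KO_F) and 58.3, 56.3 and 59.1 (KO_M). In both genes the KO females lay below the Het females and the male groups overlapped. Parp9 fell by 0.67 on the log2 scale in females (SE 0.171, adjusted p = 0.0328) and Dtx3l fell by 0.60 (SE 0.167, adjusted p = 0.0422). The Parp9 call was lost when any of the female livers but KO_F_123 was left out (adjusted p up to 0.085), and the Dtx3l call when any liver but KO_F_123 was left out (adjusted p up to 0.126). In males their log2 fold changes were 0.04 and -0.09. Parp14, a second ADP-ribosyltransferase of this family, and Trim30a, a tripartite-motif protein, were not called, with log2 fold changes of -0.04 and 0.12 over both sexes.

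The guanylate-binding proteins are large GTPases that gather on the membranes of intracellular pathogens and are induced by interferon gamma as well as by type I interferon. All 3 rose in males, where 4.01% of all genes did, and none was called in females (4.93% of all genes higher and 4.9% lower). The 3 genes lie together on chromosome 3, with Gbp3 at chr3:142265731-142278979. Gbp3 read 13.2, 13.3 and 16.0 CPM (Het_F), 5.15, 3.69 and 4.44 (Het_M), 11.2, 8.85 and 18.2 (KO_F) and 17.0, 17.3 and 17.1 (KO_M). Het males stood below all other livers, and the other 3 groups overlapped or adjoined. Gbp3 rose 1.86-fold over both sexes (log2 fold change 0.89, SE 0.161, adjusted p = 0.00323) and 3.83-fold in males (log2 fold change 1.94, SE 0.236, adjusted p = 9.77e-04). Its log2 fold change in females was -0.15 (SE 0.225, adjusted p = 0.709).

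Gbp2 read 7.34, 10.4 and 12.4 CPM (Het_F), 2.46, 4.15 and 3.05 (Het_M), 5.56, 6.08 and 11.9 (KO_F) and 10.4, 12.1 and 7.23 (KO_M). Gbp7 read 37.1, 35.5 and 39.5 CPM (Het_F), 15.9, 15.2 and 18.1 (Het_M), 15.1, 23.0 and 36.4 (KO_F) and 35.5, 34.7 and 36.6 (KO_M). In both genes the KO males lay above the Het males and close to the Het females. Gbp2 rose 3.05-fold (adjusted p = 0.0157) and Gbp7 2.17-fold (adjusted p = 0.0181) in males. The Gbp2 call was lost without Het_M_119, Het_M_137 or KO_M_118 (adjusted p up to 0.0619), and the Gbp7 call without Het_M_119, Het_M_125, KO_M_118 or KO_M_136 (adjusted p up to 0.0764). In females their log2 fold changes were -0.35 (adjusted p = 0.503) and -0.59 (adjusted p = 0.125).

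Among the antiviral effectors, Rsad2 codes for viperin, an enzyme that makes a chain-terminating nucleotide, and Oasl1 for a protein related to the oligoadenylate synthetases that restrains translation of Irf7. Both were called over both sexes, and they lie at chr12:26492745-26506451 (Rsad2) and chr5:115061294-115075974 (Oasl1). Oasl1 read 9.11, 8.61 and 10.8 CPM (Het_F), 7.98, 8.37 and 11.5 (Het_M), 10.6, 13.7 and 17.1 (KO_F) and 15.3, 17.9 and 17.5 (KO_M). A single KO liver, KO_F_108, fell within the Het range. Oasl1 rose 1.62-fold over both sexes (log2 fold change 0.70, SE 0.137, adjusted p = 0.00504) and 1.81-fold in males (adjusted p = 0.0241). Rsad2 read 9.56, 14.3 and 6.07 CPM (Het_F), 6.95, 3.86 and 8.88 (Het_M), 23.9, 10.5 and 23.0 (KO_F) and 19.3, 29.7 and 14.3 (KO_M). KO_F_112 lay within the range of the Het females, and the KO males were all above the Het males. Rsad2 rose 2.47-fold over both sexes (log2 fold change 1.30, SE 0.305, adjusted p = 0.0133) and 3.20-fold in males (adjusted p = 0.0445). The calls over both sexes held whichever liver was left out. In males the Oasl1 call was lost without Het_M_119, Het_M_125 or any KO male (adjusted p up to 0.0953), and the Rsad2 call without any of the 6 males, Het_F_111 or KO_F_123 (adjusted p up to 0.143).

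Xaf1 codes for a partner of the apoptosis inhibitor XIAP, and Ifi44 for an interferon-induced cytoplasmic protein. Xaf1 read 5.04, 5.30 and 8.20 CPM (Het_F), 3.76, 3.17 and 4.0 (Het_M), 4.19, 4.75 and 7.6 (KO_F) and 7.97, 8.46 and 9.27 (KO_M). Ifi44 read 3.93, 3.47 and 8.31 CPM (Het_F), 1.5, 2.39 and 2.95 (Het_M), 3.47, 3.09 and 7.41 (KO_F) and 5.78, 7.73 and 6.60 (KO_M). In both genes the Het males were lowest, and the liver of 1 female in each genotype stood well above the other females. Xaf1 rose 2.33-fold (adjusted p = 0.0162) and Ifi44 2.89-fold (adjusted p = 0.0445) in males, with female log2 fold changes of -0.16 and -0.17. The Xaf1 call was lost without Het_M_119, Het_M_125 or KO_M_136 (adjusted p up to 0.0713), and the Ifi44 call without any of the 6 males or Het_F_111 (adjusted p up to 0.138).

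Ifit1 and Ifit3 belong to 1 family of antiviral effectors, and Ifit1 binds viral RNA. Ifit1 read 11.7, 13.6 and 14.9 CPM (Het_F), 5.79, 6.63 and 7.14 (Het_M), 6.12, 7.03 and 12.4 (KO_F) and 10.8, 13.5 and 10.6 (KO_M). The KO males lay above the Het males, and the females overlapped. Ifit1 was not called, with log2 fold changes of 0.83 (SE 0.237, adjusted p = 0.0565) in males and -0.65 (SE 0.235, adjusted p = 0.0966) in females. Ifit3 read 18.2, 10.9 and 16.5 CPM (Het_F), 9.34, 9.45 and 11.9 (Het_M), 6.4, 8.36 and 13.7 (KO_F) and 11.4, 12.5 and 10.9 (KO_M). Its groups overlapped in both sexes (log2 fold change -0.25 over both sexes, SE 0.182, adjusted p = 0.357).

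The other 11 antiviral effectors were not called over both sexes or in either sex. The oligoadenylate synthetases, which make the activator of RNase L, had positive values over both sexes, with log2 fold changes of 0.83 for Oas1a, 0.51 for Oas2 and 0.88 for Oas3, and the related Oasl2 had 0.40. The females overlapped in all 4, and Oas3 averaged 2.47 ± 1.56 CPM in Het females and 3.36 ± 1.78 in KO females (SD, n = 3 each). In males the KO livers lay above the Het livers in Oas1a (3.98 to 8.23 against 1.46 to 2.81 CPM) and in Oas3 (1.87 to 4.78 against 0.898 to 1.5 CPM), whereas Oas2 and Oasl2 overlapped. The male log2 fold changes were 1.30 (SE 0.470, adjusted p = 0.125) for Oas1a and 1.33 (SE 0.513, adjusted p = 0.145) for Oas3. Cmpk2, a mitochondrial nucleotide kinase beside Rsad2 on chromosome 12, had a log2 fold change of 0.36, and Ifit2 had 0.18. Negative values were found for Ifit3b (-0.44), Rtp4 (-0.35), Bst2 (-0.34), Ifi27 (-0.27) and Ifi35 (-0.06). Thus the most abundant effectors, Ifi27 and Bst2, were not among those that rose.

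**Figure D3:**
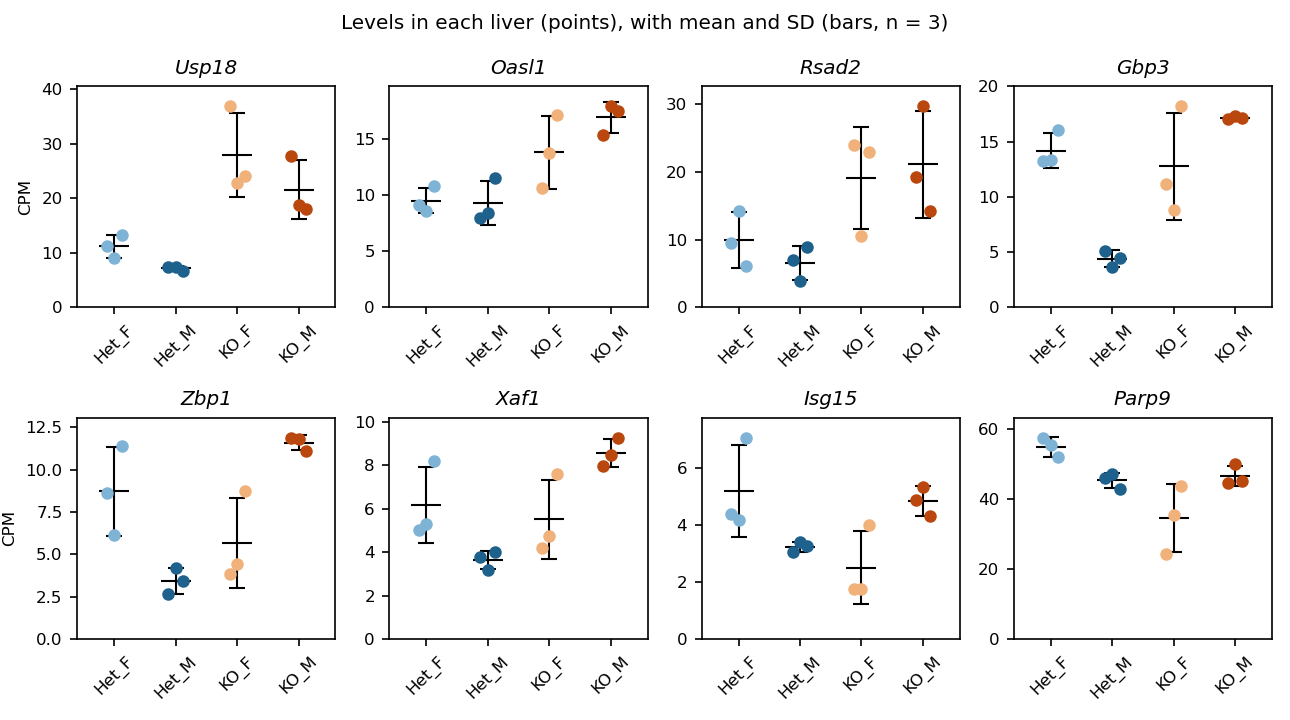
Levels in CPM of 8 members in each liver are shown as points for the 4 groups, with the mean and SD (n = 3) in black and each axis starting at 0. Usp18 is higher in all 6 KO livers, the means of Gbp3, Zbp1 and Xaf1 are lowest in Het males, and those of Isg15 and Parp9 are lowest in KO females.

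The difference between the sexes in the KO effect was tested as an interaction, the log2 fold change in males minus that in females. No member was called, where 9 of 19355 genes were (0.0465%). The smallest adjusted p values were those of Gbp3 (2.09, SE 0.324, adjusted p = 0.051), Zbp1 (2.36, SE 0.438, adjusted p = 0.0994) and Gbp7 (1.70, SE 0.332, adjusted p = 0.115). At an unadjusted p below 0.05 there were 16 members with a positive value and 0 with a negative value, against 4.84% and 4.14% of all genes. All 33 values were positive, from 0.23 to 2.36, with a median of 0.73, while 10052 of 19355 genes were positive, with a median of 0.02. The members share livers and move together, so the 33 values are not independent. Positive values were also the rule in most lists of cell markers. They were 10 of 10 for Kupffer cells (median 0.73), 9 of 10 for T and NK cells (1.14) and 6 of 6 for B and plasma cells (1.31). Endothelium had 7 of 7 (0.39), stellate cells 6 of 7 (0.60) and monocyte-derived macrophages 7 of 8 (0.80). Hepatocyte markers had 3 of 8 (-0.11) and cholangiocyte markers 2 of 5 (-0.22). A link between these lists and the members was not tested. DESeq2 called 6 members (Zbp1, Gbp3, Gbp2, Ifit1, Gbp7 and Xaf1), and limma on log2(TPM + 1) called Gbp3 and Zbp1. These methods also called more of all 19355 genes, 159 with DESeq2 and 48 with limma. Without KO_F_123, edgeR called 6 (Zbp1, Gbp3, Gbp2, Ifit1, Isg15 and Gbp7), and without Het_F_126 and KO_F_123 it called 5. In these fits 82 of 19224 and 51 of 19028 genes were called. Without Het_F_126, 31 of the 33 values were positive and the median was 0.52. With library sizes alone as scaling, the median over all genes was 0.15 and that of the members 0.85.

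**Figure D4:**
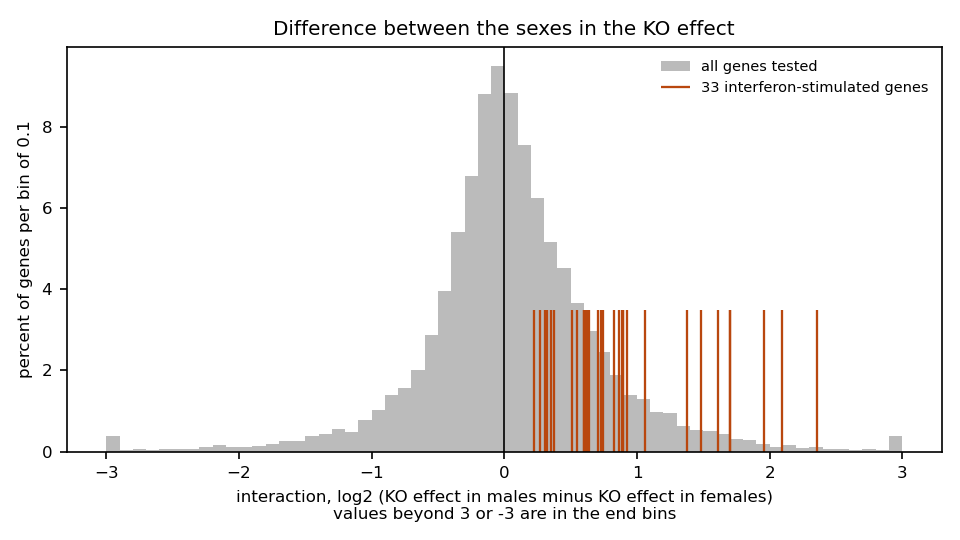
Grey bars give the percent of all 19355 genes tested per bin of 0.1 in the interaction value, on the log2 scale, with values beyond 3 or -3 in the end bins. The 33 vertical lines mark the interferon-stimulated genes, which lie between 0.23 and 2.36, all to the right of 0.

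The same livers were also compared between the sexes within each genotype, a contrast added after the data had been seen. Among Het livers the males were lower than the females in Gbp3 (log2 difference -1.67, adjusted p = 0.00475), Gbp7 (-1.19, adjusted p = 0.041) and Gbp2 (-1.62, adjusted p = 0.0446), and no member was higher, where 0.449% of all genes were called lower and 0.377% higher. At an unadjusted p below 0.05, 11 were lower and 0 higher (6.47% and 4.19% of all genes). DESeq2 called 6 lower and limma on log2(TPM + 1) called 5, and neither called any higher. Their calls over all genes, in either direction, were 554 and 224, against 160 with edgeR. The median member difference was -0.52 and 32 of 33 were negative, the exception being Ifi35. Het males lay wholly below Het females in 13 members and wholly above in 1, Ifi35 (9.68% and 7.46% of all genes). With a liver left out, the number called lower was 6 without KO_F_123, 4 without KO_F_108 and 1 without any of the other 10 livers.

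Among KO livers 0 members differed between the sexes, where 0.0568% of all genes were called in edgeR's quasi-likelihood test. At an unadjusted p below 0.05, 8 were higher in males and 0 were lower (5.63% and 6.47% of all genes), and neither DESeq2 nor limma on log2(TPM + 1) called any. Their calls over all genes were 315 and 15, against 11 with edgeR. The median member difference was 0.34 and 30 of 33 were positive. KO males lay wholly above KO females in 6 members, namely Isg15, Irf9, Ifih1, Xaf1, Zbp1 and Parp9, and wholly below in 0 (8.65% and 8.95% of all genes). Without KO_F_123, 4 members were called higher in KO males, where 243 of 19224 genes were called in either direction. Averaged over the genotypes, 0 members were called between the sexes (0.935% of all genes), 0 were higher and 4 lower at an unadjusted p below 0.05 (6% and 7.54% of all genes), and the median was -0.06. DESeq2 called 1 lower in males and limma none, where they called 722 and 219 of all genes, against 181 with edgeR. These contrasts use the same livers as the KO contrasts and are another view of the same values.

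Each liver was also summarised by the mean over the 33 members of log2 CPM minus the gene mean. Het_F_111, Het_F_115 and Het_F_126 stood at 0.01, -0.02 and 0.52, and Het_M_119, Het_M_125 and Het_M_137 at -0.55, -0.33 and -0.30. KO_F_108, KO_F_112 and KO_F_123 stood at -0.31, -0.32 and 0.43, and KO_M_118, KO_M_122 and KO_M_136 at 0.23, 0.49 and 0.16. The male groups did not overlap, and in each female group 1 liver stood well above the others. Het_F_126 was the highest of the 12 livers for 15 members, whereas Het_M_119 and KO_F_108 were the lowest for 12 members each. The guanylate-binding GTPases had the widest male gap, from -1.08, -1.02 and -0.99 in Het males to 0.56, 0.63 and 0.40 in KO males.

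Markers of other cells were summarised in the same way. Het_F_126 was the highest liver for the 10 T and NK cell markers, at 0.95, and for the interferon gamma-type genes, at 0.94. It was also the highest for the B and plasma cell markers and for the stellate cell markers, at 0.90 each. KO_M_122 stood at 0.85 for the T and NK cell markers. Levels of the T and NK cell markers were low, with summed CPM of 2.76 to 5.73 (Het_F), 2.45 to 2.92 (Het_M), 1.41 to 3.40 (KO_F) and 2.15 to 5.47 (KO_M). The 6 markers of B and plasma cells summed to 1.12 to 6.36 CPM over the 12 livers. The 10 markers of neutrophils summed to 1.39 to 3.05 CPM (Het_F), 0.425 to 1.33 (Het_M), 5.40 to 7.09 (KO_F) and 8.78 to 12.5 (KO_M). The KO livers lay above the Het livers in both sexes. Of the 4 markers tested S100a8 and Prtn3 rose over both sexes and 0 fell, against 11.4% and 10.3% of all genes. Prtn3 made up most of the sum in KO livers, with means of 3.47 CPM (KO_F) and 7.81 (KO_M) against 0.0289 (Het_F) and 0.0327 (Het_M), while Ly6g, a defining marker, reached at most 0.0290 CPM in any liver. No marker of these lists was at 0 in every liver. The part of these cells in the levels of the interferon-stimulated genes was not tested.

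**Figure D5:**
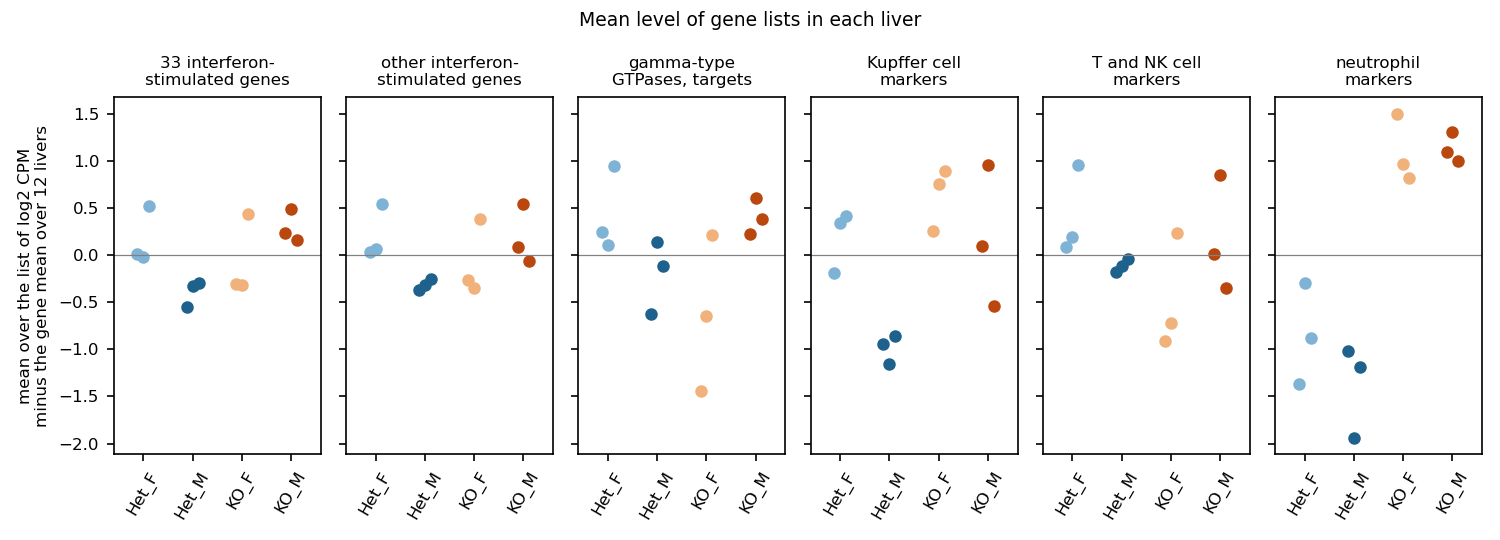
Each point is 1 liver, and its height is the mean over a gene list of log2 CPM minus the gene mean over 12 livers. The 33 members, the other interferon-stimulated genes and the interferon gamma-type genes are each higher in KO males than in Het males on average, and Kupffer cell and neutrophil markers are drawn beside them.

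The rest of the pathway was examined with lists of its parts. Of 21 interferon ligands 0 passed the filter on low counts. The highest count in a liver was 6, for Ifnz, and Ifnb1 did not exceed 1 count, so no interferon could be compared at this depth. Of 6 receptor genes 2 rose over both sexes (33.3%) and 0 fell, where 11.4% of all genes were called higher and 10.3% lower. The receptor genes that rose were Ifnlr1, the receptor chain for lambda interferons (log2 fold change 1.83, SE 0.376, adjusted p = 0.00613), and Ifngr1, a chain of the gamma receptor (0.38, SE 0.110, adjusted p = 0.0294). Ifnlr1 was scarce, with group means of 0.158 CPM (Het_F), 0.0869 (Het_M), 0.698 (KO_F) and 0.476 (KO_M), and its fold change depends on the prior count. The type I receptor chains were not called, with log2 fold changes of 0.00 for Ifnar1 (adjusted p = 0.978) and -0.07 for Ifnar2 (adjusted p = 0.675). Il10rb, the next of this list by p, was not called either (0.17, adjusted p = 0.409).

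Among 9 receptor kinases, STAT and IRF factors outside the members, 1 fell over both sexes, Irf2, a factor that competes at the same elements (log2 fold change -0.56, adjusted p = 0.00215). That was 11.1% of the list, against 10.3% of all genes called lower, and 0 of the list rose. Irf8 was not called (0.37, adjusted p = 0.139).

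Of 16 tested sensors, adaptors and kinases of interferon induction 1 fell over both sexes, Mavs, the mitochondrial adaptor of the RNA sensors (log2 fold change -0.60, adjusted p = 0.00626), and 0 rose. The share of this list that fell was 6.25%, where 10.3% of all genes fell and 11.4% rose. Tlr7 (0.85, adjusted p = 0.058) and Traf6 (0.20, adjusted p = 0.119) came next by p and were not called. The pair that detects cytosolic DNA was not called, with log2 fold changes of -0.09 for Cgas (adjusted p = 0.848) and 0.08 for Sting1 (adjusted p = 0.837). Of 15 inhibitors 2 rose, the phosphatase gene Ptpn1 (0.35, adjusted p = 0.0112) and Socs3 (1.63, adjusted p = 0.0233), and 1 fell, Rnaseh2c, a subunit of the RNase that removes RNA from DNA (-0.85, adjusted p = 0.00214). Thus 13.3% of the inhibitors rose and 6.67% fell, against 11.4% and 10.3% of all genes. Socs3 rose by 3.32 in females (adjusted p = 0.0159), with -0.05 in males (adjusted p = 0.971).

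A list of other interferon-stimulated genes had medians of the same sign as the members in each sex, -0.28 in females and 0.48 in males. Of 67 tested, 8 rose (11.9%) and 4 fell (5.97%) over both sexes, where 11.4% and 10.3% of all genes did. In females 1 rose (1.49%) and 5 fell (7.46%), against 4.93% and 4.9% of all genes, and in males 9 rose (13.4%) and 0 fell, against 4.01% and 2.9%. The 3 with the smallest p over both sexes were Ifi27l2b (log2 fold change 2.04, adjusted p = 6.06e-04), Ifi30, a lysosomal thiol reductase gene (0.83, adjusted p = 0.00604), and Ifitm1 (-1.06, adjusted p = 0.00841). Their interaction values were positive for 65 of 67, with a median of 0.84 and 23 at an unadjusted p below 0.05, and 0 were called. Of 19 tested interferon gamma-type GTPases and targets, 2 rose (10.5%) and 1 fell (5.26%) over both sexes, 0 rose and 2 fell (10.5%) in females and 2 rose (10.5%) and 0 fell in males, to be read against the same shares of all genes. Gbp8 (1.37, adjusted p = 0.00433) and Gbp9 (0.81, adjusted p = 0.035) rose, and Tgtp2 fell (-1.14, adjusted p = 0.00975). All 19 interaction values were positive, with a median of 1.40 and 14 at an unadjusted p below 0.05, and 0 were called. An ISRE core was present in 24 of 67 promoters of the other interferon-stimulated genes (35.8%), and a GAS match in 1 (1.49%).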

How the data were processed

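Stranded libraries were made from liver RNA of 12 mice after removal of ribosomal RNA. The authors aligned reads with STAR 2.7.9a to GRCm39, took genes from GENCODE M34 and quantified them with Salmon 1.10.1. The deposited tables hold estimated counts per gene, a pair of further tables of estimated counts rebuilt from abundance, and TPM scaled by the authors' pipeline to 1 total in every library, which keeps no depth. CPM are counts divided by the library total after TMM scaling, times a fixed factor. Groups came from the labels, with 3 mice in each of 4 groups, and 0 columns belonged to other samples. The labels name separate mice.

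Estimated counts, of which 12% were not whole, were rounded. Genes were kept with at least 5 reads, scaled to the median library, in at least 3 livers. Counts were scaled by TMM (factors 0.888 to 1.06) and fitted with edgeR 4.0.16 in R 4.3.3 (glmQLFit with robust estimation, a prior count of 2 and the default method of that version, then glmQLFTest) on 4 group means. The contrasts were KO minus Het over both sexes and within each sex, their interaction, and male minus female. Benjamini-Hochberg adjustment ran over all 19355 genes, and genes below 0.05 are called. Standard errors come from the F statistic. The fit was checked on simulated data.

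Members and lists were chosen with earlier results of these data known. Values in every liver are given for the 10 members with the smallest p over both sexes, those called in 1 sex, and Irf7, Irf9, Stat2, Isg15, Ifit1 and Ifit3. Of each pathway list the 3 genes with the smallest p are named, with Ifnar1, Ifnar2, Cgas, Sting1 and Ifnb1, and Xpa as the label check. One gene that the rule names is not reported here. Other genes were named after their values were seen. Promoters and coordinates come from GENCODE M39, a later release than that of the authors on the same build.

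Alternatives were the other deposited count tables, counts without rounding, limma 3.58.1 on log2(TPM + 1) and log2(TPM + 0.1), no filter, at least 10 reads in every liver, relative log expression (RLE) or library size as scaling, no robust estimation, DESeq2 1.42.0 and leaving out each liver. The newer quasi-likelihood method of edgeR, the contrasts between sexes within a genotype and leaving out Het_F_126 and KO_F_123 together were added after the data had been seen.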

Additional observations from a re-analysis of the deposited data

Results flagged for a closer look

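A liver is named here where its gap to the nearest other liver of its genotype, divided by the range of the 6 livers, exceeded Dixon's critical value of 0.625. The test was made in 66 groups of 6 livers (33 members in Het and in KO livers), and chance flags about 1 in 20 groups. There were 6 such results, and in each the liver was Het_F_126, the highest Het liver. The ratios were 0.734 for Oas3, 0.71 for Oasl2, 0.669 for Isg15, 0.649 for Bst2, 0.643 for Ifi44 and 0.641 for Oas2. The members share livers, so these results are not independent of each other. Isg15 read 7.05 CPM in this liver and 4.38 CPM in the next highest Het liver, and Bst2 read 87.7 and 67.2 CPM. No KO liver was named by this measure.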

How the results depend on the processing

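No paired analysis was possible because each mouse number occurs once and the groups share none. Of 132 member values in the 4 KO contrasts, 61 had an unadjusted p below 0.05, and 0 of these changed sign in any setting, while 23 of the other 71 did. The calls of Usp18 in each sex and over both, of Gbp3 and Zbp1 in males and of Gbp3, Oasl1 and Rsad2 over both sexes held in every setting.

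For KO minus Het over both sexes, where 4 members were called, all higher, limma on log2(TPM + 1) and on log2(TPM + 0.1) each called 7, all higher. DESeq2 called 10, of which 9 were higher and 1 lower. In females, where 3 were called, DESeq2 called 5, of which 4 were lower, and the length-scaled and the scaled counts each called 1 lower in place of 2. For the interaction, where 0 were called, 2 were called higher by limma with either pseudocount and without a filter, 6 by DESeq2, and 1 with at least 10 reads in every liver, RLE scaling, no robust estimation or the newer quasi-likelihood method. For male minus female DESeq2 called 1, lower in males, and limma gave 8 and 9 positive values in place of 14. Within Het livers, where 3 were called lower in males, limma called 5 lower with either pseudocount, DESeq2 6, and the length-scaled counts, the scaled counts and at least 10 reads in every liver 1. There 0 values were positive with limma or library size only, in place of 1. Calls over all genes also changed with the setting. In females DESeq2 called 3141 genes, the length-scaled counts 1633 and the scaled counts 1463, against 1903 as reported. For the interaction, 9 as reported, limma called 48 and 30 and the fit without a filter 21. It was 14 with at least 10 reads, 17 with RLE, 24 without robust estimation and 15 with the newer method.

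Without Het_F_126 and KO_F_123 together, 10 were called over both sexes (7 higher and 3 lower), 8 in females (7 lower), 5 for the interaction, all higher, and 5 for male minus female in KO livers, all higher, with 24 positive values for male minus female and 6 for that in Het livers. With each liver left out in turn, the number called ranged from 4 to 9 over both sexes (4 to 9 higher, 0 to 3 lower), from 1 to 12 in females (0 to 11 lower), from 4 to 11 in males, all higher, from 0 to 6 for the interaction, all higher, from 1 to 6 within Het livers, all lower, and from 0 to 4 within KO livers, all higher. Positive values ranged from 4 to 12 in females and from 1 to 6 within Het livers. With 1 liver left out the calls over all genes ranged as well. They ran from 2959 to 4140 over both sexes, from 699 to 2550 in females and from 487 to 1756 in males. For the interaction they ran from 4 to 82, within Het livers from 87 to 210 and within KO livers from 5 to 243. The cause of these changes was not tested. Groups of 3 livers limit what can be called, and a group with a liver left out rests on 2.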
